A study of Mus musculus with 123 samples.

Results

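The genes that copy DNA were followed in single heart cells of mouse embryos and newborns. The list holds 43 genes of the 23337 gene symbols counted, and it was put together from the known roles of the genes, with earlier results of these data known. It was set out in 6 groups: 9 genes of origin licensing, 7 of origin firing and the polymerases, 12 of the replication fork, 4 of nucleotide synthesis, 6 of chromatin assembly and 5 of repair during S phase. All 43 were in the table, and all were found in at least 3 of the 112 cells kept.

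The cells were αMHC-GFP+ cells of αMHC-GFP mouse hearts, in which the promoter of the cardiac α-myosin heavy chain gene drives a green fluorescent protein. Cells of 3 time points were sorted and captured on Fluidigm C1 chips: 42 from E9.5 and 29 from E12.5, both days of embryonic development, and 52 from postnatal day 1 (P1). Hearts were digested with collagenase at E9.5 and E12.5 and with Liberase at P1, so the enzyme and the step to P1 cannot be told apart. The labels name no treatment, every cell carried the same transgene, and no animal, litter or chip is named, so each time point counts as 1 sample and no test across cells was made.

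A cell copies its genome once per cycle. In G1, Cdc6 and Cdt1 load the MCM2-7 helicase onto origins, and geminin (Gmnn) blocks reloading later. In S phase Cdc45 and GINS turn the helicase on, the polymerases start and extend the strands, and the clamp PCNA, loaded by replication factor C (RFC), holds them on the template. Many of these genes are switched on at the G1/S border by E2F factors, and heart muscle cells of the mouse divide in the embryo and largely leave the cycle soon after birth.

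Among the 40 start-site windows that RefSeq (GRCm38.p6) lists for 36 of the genes, 15 held a letter-perfect E2F site. The window runs from 250 bases before to 50 bases after the start. The letters searched were TTTGGCGC, TTTCCCGC and TTTCGCGC on both strands, and these can overlap one another. The share was 37.5%, against 1.84% of all 32851 windows of the mouse genome and 2.42% of the 19069 windows of genes in the count table. The 15 genes were Cdc6, Cdt1, Mcm3, Mcm5, Mcm6, Mcm7, Pola1, Pold1, Pold3, Lig1, Rfc3, Clspn, Hells, Cdca7 and Dtl. CCAAT, the letters of the NF-Y site, was in 57.5% of the windows and in 37.4% of all, and TTTGAA, those of the CHR element of many mitotic genes, in 10% and 17.9%. Dscc1, Gmnn, Gins2, Rfc2, Tipin, Mcm4 and Exo1 had no entry.

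Windows of the 4 genes with the highest level at E9.5 among those that held a site are given 5′ to 3′ on the gene's strand, because all 4 genes were at most at 10.5 counts per 1000000 (CPM) at P1. Capitals mark the E2F letters. Those of Mcm3 (chr1:20820263-20820562, minus strand), Mcm5 (chr8:75109259-75109558, plus strand) and Mcm6 (chr1:128359656-128359955, minus strand) are set on the start that RefSeq lists, and the window of Mcm5 ends before the start of the gene in GENCODE. That of Lig1 (chr7:13278576-13278875, plus strand) belongs to 1 of 3 listed starts and lies inside the span of the gene in GENCODE, and the other windows of Lig1 held no site.
Mcm3: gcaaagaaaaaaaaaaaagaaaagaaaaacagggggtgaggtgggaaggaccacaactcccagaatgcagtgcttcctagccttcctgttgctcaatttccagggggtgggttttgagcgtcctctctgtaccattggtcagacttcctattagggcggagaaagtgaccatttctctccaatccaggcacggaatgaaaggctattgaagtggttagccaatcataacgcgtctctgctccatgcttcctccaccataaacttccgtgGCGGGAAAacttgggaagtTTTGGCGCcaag
Mcm5: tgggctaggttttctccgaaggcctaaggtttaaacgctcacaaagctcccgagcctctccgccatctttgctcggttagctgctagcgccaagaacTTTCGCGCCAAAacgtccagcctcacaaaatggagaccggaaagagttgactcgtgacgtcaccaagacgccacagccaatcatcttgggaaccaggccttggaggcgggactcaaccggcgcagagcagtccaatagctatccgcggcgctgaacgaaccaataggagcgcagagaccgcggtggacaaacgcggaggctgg
Mcm6: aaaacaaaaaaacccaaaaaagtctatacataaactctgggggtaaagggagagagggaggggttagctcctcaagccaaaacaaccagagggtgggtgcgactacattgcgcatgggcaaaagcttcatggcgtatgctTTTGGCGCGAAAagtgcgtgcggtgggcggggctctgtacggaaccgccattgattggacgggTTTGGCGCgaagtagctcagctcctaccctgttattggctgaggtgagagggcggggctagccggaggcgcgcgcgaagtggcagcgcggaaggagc
Lig1: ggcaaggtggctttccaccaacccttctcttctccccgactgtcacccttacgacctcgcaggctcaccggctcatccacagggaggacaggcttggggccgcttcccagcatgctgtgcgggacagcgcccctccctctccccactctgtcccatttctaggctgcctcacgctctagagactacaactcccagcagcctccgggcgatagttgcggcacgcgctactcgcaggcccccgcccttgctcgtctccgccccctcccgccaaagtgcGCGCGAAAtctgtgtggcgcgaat
The letters lie after the RefSeq start in Mcm3 and Lig1 and before it in Mcm5 and Mcm6. A match is a description of the sequence, and no binding was measured.

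Total counts of the kept cells ran from 69522 to 7711355, and the deepest cells were those titled N530 at E9.5 and N523 at E12.5. Levels were therefore read after each cell had been thinned at random to 100000 counts, which left 42, 29 and 38 cells. They are given as CPM, so that 1 count in a cell is 10 CPM, and 1 count over all P1 cells is 0.263 CPM. Intervals are exact 95% Poisson (levels) or Clopper-Pearson (shares of cells) intervals and cover counting error only, since the reads carry no molecular identifiers. The title prefixes split the cells into naming sets (N530 or C for the E9.5 cells, N523, C or, for a lone cell, E12-5b for the E12.5 cells, and C for the P1 cells), which stand in for chips or runs. A gene was called lower or higher when its level differed 2-fold or more and in the same direction for every combination of naming sets with at least 6 cells. No 2 cells had identical counts. After thinning, the median cell of E9.5 had 3723.5 genes, that of E12.5 3586 and that of P1 2846.5. The 12 cardiomyocyte markers summed to a median of 71740, 47280 and 85170 CPM.

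A few cells were low in the markers of the labelled heart muscle cell. Cells with under 10000 CPM of cardiomyocyte markers numbered 4 of E9.5, 0 of E12.5 and 1 of P1, and this limit was chosen after the data were seen. Of the 4 cells at E9.5, 1 had 2 of the 8 fibroblast markers, 1 had 6 of the 8 endothelial markers and the other two had 4 fibroblast markers each. In this order they had 1, 2, 3 and 11 of the 12 cardiomyocyte markers, the last at 3560 CPM and the others at 160 to 590 CPM. Their replication genes summed, in the same order, to 12860, 3460, 16130 and 6720 CPM, against a median of 3435 CPM over the E9.5 cells, and they held 22.8% of the list's counts at E9.5. The P1 cell had 8 of 12 cardiomyocyte markers at 340 CPM and 6 of 8 endothelial markers at 7980 CPM, and it held 10.4% of the list's counts at P1. Over all cells of E9.5, E12.5 and P1, the 8 fibroblast markers summed to at most 4020, 570 and 120 CPM, the 8 endothelial markers to 2050, 20 and 7980 CPM, the 7 epicardial markers to 3000, 610 and 400 CPM and the 6 smooth muscle markers to 1820, 120 and 360 CPM, with medians of 0 in all but the epicardial markers (15, 40 and 0 CPM). Red cell markers were at 0 at E12.5 and P1 and reached 180 CPM in a cell at E9.5. Of the 8 macrophage markers, 8, 8 and 7 were at 0, and the remaining one reached 670 CPM in a P1 cell. Values without the 5 cells stand beside many of the results that they move, but not beside all.

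The 43 genes together were about 8-fold lower at P1 than at E9.5. Their sum was 4095 CPM (4034.5 to 4157) in E9.5 cells, 3088 CPM (3025 to 3153) in E12.5 cells and 516 CPM (494 to 539.7) in P1 cells. P1 lay below E9.5 by a log2 ratio of -2.99 ± 0.048 (SD over 2 combinations of naming sets), a 7.93-fold lower sum. P1 lay below E12.5 by -2.58 ± 0.29, a 5.98-fold lower sum. The P1 cells form 1 naming set, so these SDs hold no spread of P1. Without the P1 cell with the highest sum P1 stood at 437 CPM, 9.37-fold below E9.5 and 7.06-fold below E12.5. E12.5 lay below E9.5 by a log2 ratio of -0.41 ± 0.24 (SD over 4 combinations, -0.54 to -0.06), less than 2 such SDs. The ratio was 0.000629 in pooled counts without thinning, so no order of E9.5 and E12.5 is read from the sums. Without the 5 cells low in cardiomyocyte markers the sums were 3496, 3088 and 475 CPM, and the log2 ratios were -2.88, -2.70 and -0.18.

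Of the 43 genes, 40 were lower at P1 than at E9.5 and 0 were higher. Over all 12159 genes found in 3 or more kept cells, 32.3% were lower and 17.9% higher by the same rule. Against E12.5, 31 of the 43 were lower at P1 and 0 higher, where 19.2% and 18.6% of all genes were. The median log2 ratio of the 43 genes was -4.08 against E9.5 and -2.80 against E12.5, with genes at 0 at P1 set at their bound, and that of all genes -0.67 and -0.37. All 43 ratios were below 0 in both comparisons. The 3 genes not called against E9.5 were Pold3, Rfc5 and Ung. The 12 not called against E12.5 were Cdc6, Cdt1, Mcm10, Pold1, Rpa1, Tipin, Chaf1b, Nasp, Slbp, Cdca7, Ung and Blm. Without the 5 cells low in cardiomyocyte markers 36 genes were lower than at E9.5 and 32 lower than at E12.5, where 30% and 19.9% of all genes were, and Ung was higher than at E9.5 (3.24 against 1.05 CPM). Gins2 was then 1.11-fold lower than at E9.5 and not called. Its P1 level there, 7.84 CPM, leaned on the P1 cell with the highest sum, which held Gins2 at 200 CPM. Cdc45, Rpa2 and Rad51ap1 were still 5.68-fold, 3.92-fold and at least 69.1-fold lower, but lost their call because the E9.5 cells of set C left stood at 0.91, 7.27 and 0 CPM, not above P1. Nasp was called against E12.5, at 2.26-fold. Single cells weighed on many genes. When each gene was read without the embryonic cell that held most of its counts (chosen after the data were seen), 15 of the 40 folds against E9.5 and 14 of the 31 against E12.5 shrank by over 1.5 times. Those against E9.5 were of Cdc6, Cdt1, Mcm6, Mcm10, Cdc45, Gins2, Pola1, Pold1, Rfc3, Rfc4, Fen1, Lig1, Tipin, Exo1 and Rad51ap1. Calls ended for Cdc45 and Gins2 against E9.5, and for Gmnn, Pold3, Dscc1 and Rad51ap1 against E12.5. The comparisons share the P1 cells. TMM scaling moved every gene up by 0.41 against E9.5 and 0.28 against E12.5 (log2), and 38 and 30 of the 43 were then lower, while the calls over all genes became 26.1% lower and 23.6% higher against E9.5 and 15.7% lower and 22.7% higher against E12.5. Over the alternatives run, 33 to 42 genes were lower than at E9.5 and 28 to 39 lower than at E12.5.

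**Figure D1:**
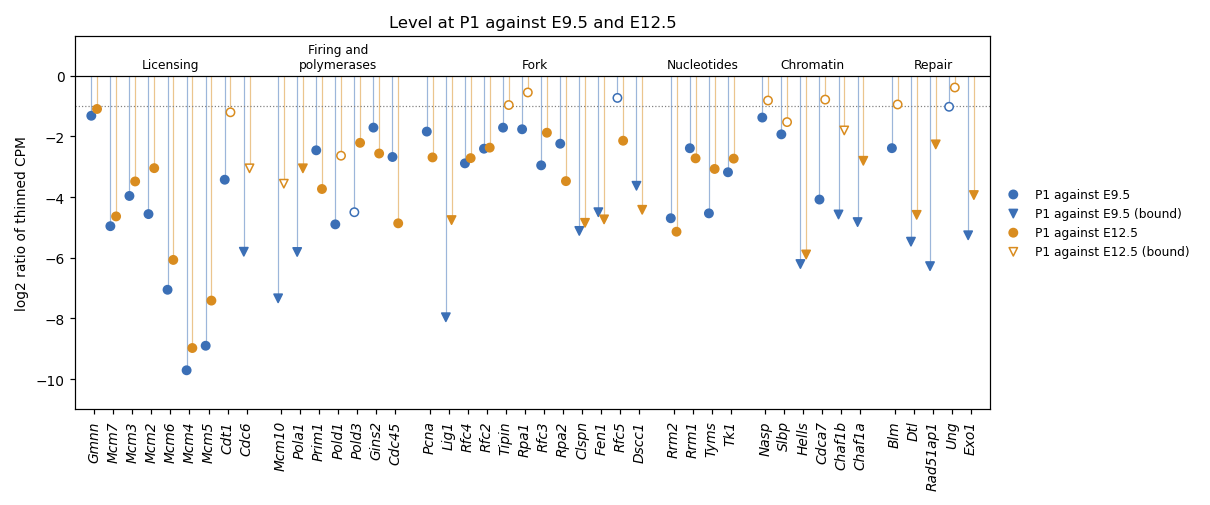
The log2 ratio of thinned CPM at P1 to that at E9.5 (blue) and E12.5 (orange) for each of the 43 genes, grouped by role, with triangles for genes at 0 at P1 (ratio to a floor of 3 counts, so the fall is at least this large) and open symbols for genes that the rule did not call. Every point is below 0. Mcm4 and Mcm5 are drawn at their 1 count at P1, under the floor of 3 counts, so their low place does not rank them against the triangles.

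The licensing genes together were 13.5-fold lower at P1 than at E9.5. Their sum went from 1119 CPM (1087 to 1152) in E9.5 cells to 614 CPM (586 to 644) in E12.5 cells and 82.9 CPM (74.0 to 92.6) in P1 cells, and all 9 were lower at P1 than at E9.5. The log2 ratio between P1 and E9.5 was -3.75 with 1 E9.5 set and -3.76 with the other. A single P1 cell, the one with the highest sum, held 43.8% of the P1 counts of the group. Without it the group stood at 47.8 CPM, 23.4-fold below E9.5 and 12.8-fold instead of 7.41-fold below E12.5. Against E12.5, 7 of the 9 were lower, and Cdc6 and Cdt1 were not called.

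The MCM2-7 genes encode the ring helicase. Mcm4 (chr16:15623897-15637400) ran from 0 to 1570 CPM over the E9.5 cells with a median of 10, from 0 to 740 CPM over the E12.5 cells with a median of 10, and from 0 to 10 CPM over the P1 cells with a median of 0. It was found in 21 of 42, 15 of 29 and 1 of 38 cells. Its level was 220.2 CPM at E9.5 (206 to 235), 132 CPM at E12.5 and 0.26 CPM, 1 count, at P1. This P1 level is 837-fold lower than that at E9.5, with a counting interval of 149.8 to 33091. It lies under the floor of 0.789 CPM (3 counts) set for genes at 0, so the fold does not rank against their bounds.

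Mcm2 was at 180.2, 63.1 and 7.63 CPM at the 3 time points and Mcm3 at 164, 118 and 10.5 CPM. Nearly all of the P1 counts of Mcm2 (96.6%) came from the cell with endothelial markers, and Mcm2 stood at 0.27 CPM without it. Of the P1 counts of Mcm3, 87.5% came from the cell with the highest sum. Mcm5, Mcm6 and Mcm7 were each found in 1 P1 cell, with 1, 3 and 10 counts. Mcm5 fell from 126 to 0.26 CPM, 478-fold with an interval of 85.4 to 18904, and Mcm6 from 105 to 0.79 CPM, 133-fold with an interval of 45.2 to 647. As with Mcm4, the 1 count of Mcm5 lies under the floor of 3 counts, so its fold does not rank against the bounds of genes at 0. Mcm6 was at 55.3 CPM at E9.5 without the 4 cells low in cardiomyocyte markers. Mcm7 overlaps Ap4m1 on the opposite strand over 7.25% of its exonic bases and the microRNA genes Mir93 and Mir25 on its own strand, and counts of overlapping genes cannot be told apart without strand.

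All 6 helicase genes were found together in 5 E9.5 cells, 1 E12.5 cell and 0 P1 cells. None of the 6 was found in 2 of 42, 5 of 29 and 33 of 38 cells. The E9.5 cells with all 6 included those low in cardiomyocyte markers with replication sums of 12860 and 6720 CPM. The 2 loaders were sparse even at E9.5. Cdc6 was found in 6 of 42 cells at 44.05 CPM and Cdt1 in 9 of 42 at 59.5 CPM, and 72.4% of the Cdt1 counts came from 1 cell. Cdc6 was at 11.6 CPM without the 4 cells at E9.5. At P1 Cdc6 had no count, which makes it at least 55.8-fold lower than at E9.5, or 36.5-fold without the E9.5 cell with most of its counts, and Cdt1 was at 5.53 CPM, or at 1.62 CPM without the cell with endothelial markers.

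Geminin, the inhibitor of relicensing, departed from the rest of the group. Gmnn (chr13:24751845-24761923) ran from 0 to 860 CPM at E9.5 and from 0 to 570 CPM at E12.5 with a median of 40 in both, and from 0 to 920 CPM at P1 with a median of 0. The cells of the 3 time points overlapped. It was found in 64.3%, 65.5% and 36.8% of cells (21.8% to 54.01% at P1). Its levels of 138, 118 and 55.3 CPM put P1 2.50-fold below E9.5 and 2.14-fold below E12.5, the smallest falls among the licensing genes called in both. The P1 cell with the highest sum gave 43.8% of its P1 counts, so both folds depend on that cell. Without the E12.5 cell with most Gmnn counts, the fold against E12.5 was 1.85 and not called.

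The firing and polymerase genes were found in few cells even in the embryo, at most in 33.3% at E9.5 (Mcm10) and in 37.9% at E12.5 (Prim1). They summed to 362 CPM (344 to 381), 263 CPM (245 to 282) and 21.8 CPM (17.4 to 27.1), and 6 of 7 were lower at P1 than at E9.5 and 5 of 7 lower than at E12.5. Most counts at E9.5 came from Mcm10, which helps to turn the helicase on, at 128 CPM, Pold3, a subunit of polymerase δ, at 77.4 CPM and Pola1, the catalytic subunit of polymerase α, at 44.3 CPM. Single cells carried 66.6% of the Mcm10 counts and 75.7% of the Pold3 counts. At P1 neither Mcm10 nor Pola1 had a count, so that they lay at least 162-fold and 56.1-fold below E9.5, or 55.3-fold and 35.2-fold without the E9.5 cell with most counts of the gene.

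Pold3 was not called against E9.5, because set C at E9.5 held 2.14 CPM, below the 3.42 CPM of P1, and set N530 held 115 CPM. It was found in 3 P1 cells. Cdc45, which joins MCM and GINS in the active helicase, had the fewest counts of the group at E9.5, 20.2 CPM in 4 of 42 cells. It stood at 92.1 CPM at E12.5, of which 80.5% lay in 1 cell, and at 3.16 CPM at P1. The P1 level of the GINS subunit Gins2, 29 counts, leaned on the P1 cell with the highest sum, at 200 CPM. Gins2 was at 25.0, 45.2 and 7.63 CPM, and at 8.68 CPM at E9.5 without the 4 cells. Of its exonic bases 67.3% overlap Gse1 on the opposite strand, so its counts are uncertain. The primase Prim1 was at 36.2, 87.6 and 6.58 CPM and Pold1, the catalytic subunit of polymerase δ, at 31.4, 6.55 and 1.05 CPM, with 11.3 CPM at E9.5 without the 4 cells.

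The genes of the replication fork summed to 932 CPM (903 to 961), 787 CPM (755 to 819.5) and 159 CPM (147 to 173), a 5.84-fold fall from E9.5 to P1, and 11 of 12 were lower than at E9.5 and 10 of 12 lower than at E12.5. The DNA ligase Lig1, which seals Okazaki fragments, gave the most counts of the group at E9.5, 197 CPM (183 to 211), and 53.9% of that came from 1 cell at 4450 CPM. It appeared in 26 of 42 E9.5 cells, in 12 of 29 E12.5 cells at 21.4 CPM, and in none of 38 P1 cells. That makes it at least 249-fold lower than at E9.5, or 118-fold without that E9.5 cell, and 0 of 38 cells allows a share of cells with a count, at this depth, of up to 7.89% by the limit of 3 counts and 9.25% by the Clopper-Pearson interval. Neither limits the share of cells that express the gene. Its window with an E2F site is printed above.

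The sliding clamp Pcna (chr2:132249162-132253314) ran from 0 to 1000 CPM with a median of 40 at E9.5, from 0 to 1000 CPM with a median of 140 at E12.5, and from 0 to 450 CPM with a median of 0 at P1. It was found in 66.7%, 68.97% and 26.3% of cells. Its level was 107 CPM (97.0 to 117), 192 CPM (177 to 209) and 29.7 CPM (24.5 to 35.8), 3.59-fold lower at P1 than at E9.5 and 6.47-fold lower than at E12.5. Without the 4 cells it was at 68.7 CPM at E9.5. The P1 level came from 113 counts, a large part of them in the cell at 450 CPM, so both folds depend on that cell.

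The RFC subunits, which open the clamp, went from 110.2, 85.7, 101.4 and 18.8 CPM for Rfc2, Rfc3, Rfc4 and Rfc5 at E9.5 to 20.8, 11.1, 13.7 and 11.3 CPM at P1. Rfc5 was not called against E9.5, with a fold of 1.66. It was at 8.93 CPM in set N530 and 38.6 CPM in set C at E9.5, and its 43 counts at P1 all lay in the P1 cell with the highest sum. All 4 subunits were found together in 5, 3 and 0 cells and none of them in 8, 3 and 26 cells. Rfc2, Rfc4 and Rfc5 overlap Lat2, Eif4a2 and Wsb2 on the opposite strand over 15.1%, 12.7% and 10.7% of their exonic bases.

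Rpa1 and Rpa2 coat single strands. Rpa1 was at 89.5, 38.6 and 26.3 CPM and was found in 9 P1 cells, and it was not called against E12.5. Rpa2 was at 48.6, 114 and 10.3 CPM and was found in 4 P1 cells. The fork protection gene Tipin was at 119, 71.0 and 36.3 CPM in 20 of 42, 13 of 29 and 5 of 38 cells, and it was not called against E12.5, where the fold was 1.96 and set N523 held 6.25 CPM and set C 100.5 CPM. The flap nuclease Fen1, the checkpoint mediator Clspn and the clamp loader subunit Dscc1, with the fewest counts of the group at E9.5 (9.76 CPM), had no count at P1. They were at least 22.6-fold, 34.7-fold and 12.4-fold lower than at E9.5, and 49.3% of the Fen1 counts at E9.5 lay in 1 cell, without which its bound was 11.7-fold. Fen1 shares 78.8% of its exonic bases with an antisense gene, Gm10143.

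The nucleotide genes held the gene with the highest level per length in the embryo, Rrm2. They summed to 874 CPM (846 to 902), 996 CPM (959.9 to 1033) and 77.1 CPM (68.5 to 86.5), and all 4 were lower at P1 than at both embryonic time points. Rrm2 (chr12:24708241-24714146), the small subunit of ribonucleotide reductase, ran from 0 to 2540 CPM with a median of 100 at E9.5, from 0 to 3220 CPM with a median of 160 at E12.5, and from 0 to 510 CPM with a median of 0 at P1. It was found in 76.2%, 72.4% and 10.5% of cells. Its level of 430.5 CPM (411 to 451), 586 CPM (558 to 614) and 16.6 CPM (12.7 to 21.2) put P1 26.0-fold below E9.5 and 35.3-fold below E12.5. Of its P1 counts 81.0% lay in 1 cell, so both folds depend on that cell.

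Its partner Rrm1, the large subunit, fell less. It was at 253 CPM (238 to 268), 318 CPM (298 to 339) and 48.2 CPM (41.4 to 55.7), 5.25-fold lower at P1 than at E9.5 and 6.61-fold lower than at E12.5, and was found in 7 P1 cells. Per length, by the mean deposited TPM (transcripts per 1000000), Rrm2 was at 468, 508 and 12.1 TPM and Rrm1 at 141, 146 and 18.5 TPM, so the order of the subunits at P1, from 5 and 7 of the 41 kept cells, was the opposite of that in the embryo. Thymidylate synthase, Tyms, was at 128, 46.6 and 5.53 CPM and thymidine kinase, Tk1, with the fewest counts of the group at E9.5, at 62.1, 45.5 and 6.84 CPM. All 21 Tyms counts at P1 came from 1 cell. The table also holds the pseudogene Tyms-ps, with which Tyms could share reads.

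Chromatin genes had the smallest fall of the 6 groups by their sum, to which Nasp gave 509 of 634 counts at P1. The median log2 ratio of the 6 genes between P1 and E9.5 was -4.33, and that of the fork genes -2.65. They summed to 650 CPM (626 to 675), 379.7 CPM (358 to 403) and 167 CPM (154 to 180.3), 3.896-fold lower at P1 than at E9.5 and 2.28-fold lower than at E12.5. All 6 were lower than at E9.5 and 2 of 6 lower than at E12.5. Nasp (chr4:116601052-116627941), a chaperone of linker and core histones, was found in the largest share of cells of the 43 at each time point: 88.1% (74.4% to 96.02%), 82.8% (64.2% to 94.1%) and 47.4% (31.0% to 64.2%). It ran from 0 to 1820 CPM with a median of 190 at E9.5, from 0 to 1790 CPM with a median of 80 at E12.5, and from 0 to 1220 CPM with a median of 0 at P1. Its level was 349 CPM (331 to 367), 236 CPM (219 to 255) and 134 CPM (123 to 146), 2.60-fold lower at P1 than at E9.5. The 1.76-fold difference from E12.5 was under the 2-fold limit.

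Slbp, which binds the stem-loop of histone mRNAs, was at 104, 78.3 and 27.1 CPM and was found in 11 P1 cells. Hells, a chromatin remodeller, was at 58.3, 46.9 and 0 CPM and at 35.3 CPM at E9.5 without the 4 cells. Chaf1a and Chaf1b, the subunits of the histone chaperone CAF-1, were at 22.4 and 18.8 CPM at E9.5 and were not found at P1, at least 28.3-fold and 23.8-fold lower. Chaf1a overlaps Ubxn6 on the opposite strand over 52.5% of its exonic bases. Cdca7, a partner of Hells, was at 98.1, 10.0 and 5.79 CPM and was found in 4 P1 cells.

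The repair genes summed to 159 CPM (147 to 172), 48.6 CPM (40.9 to 57.3) and 8.16 CPM (5.54 to 11.6), and 4 of 5 were lower at P1 than at E9.5 and 3 of 5 lower than at E12.5. Rad51ap1 gave the most counts at E9.5, 61.2 CPM in 8 of 42 cells, followed by Dtl, a substrate receptor that has Cdt1 degraded, at 35 CPM and the nuclease Exo1 at 30.2 CPM. None of the 3 had a count at P1, and they were at least 77.5-fold, 44.3-fold and 38.3-fold lower than at E9.5. At E9.5 a single cell held 73.2% of the Exo1 counts, at 930 CPM, and a single cell 45.5% of the Rad51ap1 counts, at 1170 CPM. Without that cell Exo1 was at 8.29 CPM, at least 10.5-fold above P1, and Rad51ap1 at 34.1 CPM, at least 43.3-fold above. The helicase Blm was at 26.2, 9.66 and 5.00 CPM and was found in 3 P1 cells. Uracil DNA glycosylase, Ung, with the fewest counts of the 43 at E9.5, was at 6.43, 4.14 and 3.16 CPM and was called in no comparison. It was at 1.05 CPM at E9.5 without the 4 cells.

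**Figure D2:**
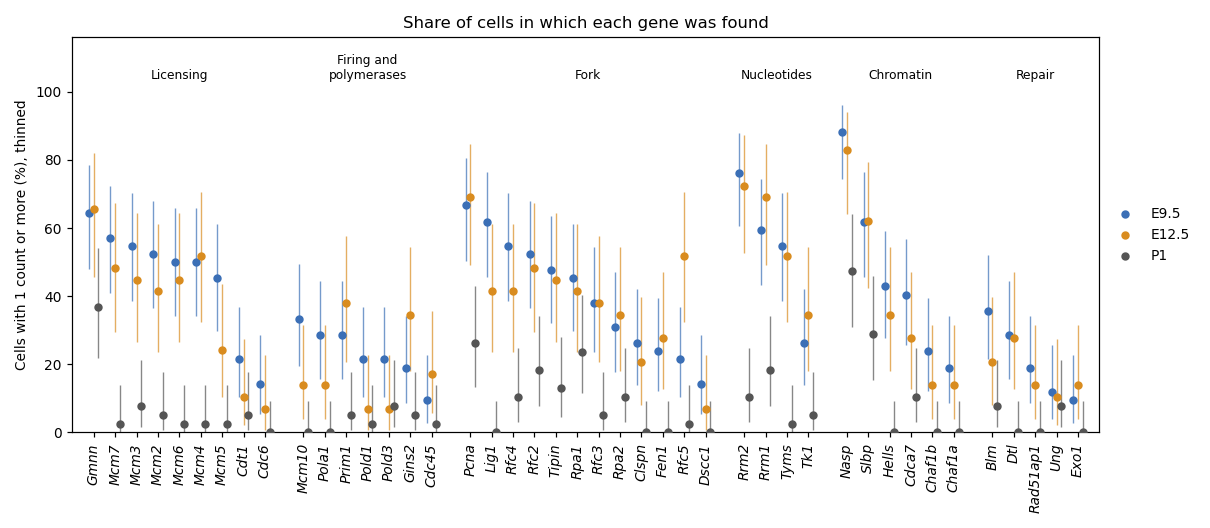
The share of cells (percent, thinned cells) with 1 count or more of each gene at E9.5 (blue, 42 cells), E12.5 (orange, 29 cells) and P1 (grey, 38 cells), with exact 95% Clopper-Pearson intervals as bars. Nasp has the highest share at each time point, 88.1%, 82.8% and 47.4%, and 13 genes lie at 0 at P1.

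From E9.5 to E12.5 the list did not move as a block. Of the 43, 13 were lower at E12.5 and 2 higher, where 17.1% and 7.8% of all genes were, and the median log2 ratio was -0.73 against -0.20 over all genes. The lower genes were Cdc6, Cdt1, Mcm5, Mcm10, Pola1, Pold1, Rfc3, Rpa1, Lig1, Tyms, Chaf1b, Cdca7 and Rad51ap1. Rad51ap1 was 16.1-fold lower, Mcm10 13.7-fold, Cdca7 9.81-fold and Lig1 9.20-fold. Without the 4 cells low in cardiomyocyte markers 10 genes were lower and 6 higher, where 15% and 8.19% of all genes were. Cdc6 (1.77-fold) and Pold1 (1.73-fold) were then under the 2-fold limit. Mcm5 (2.49-fold) and Rad51ap1 (14.8-fold) were still lower by that limit, but not in every combination of sets. In turn, Blm was called lower and Gins2, Prim1, Pcna and Dscc1 were called higher. The 2 higher genes in all cells were Rfc5, from 18.8 to 50 CPM (log2 1.41, 0.22 to 2.61 over naming sets), and Rpa2, from 48.6 to 114 CPM (log2 1.23, 0.31 to 2.52). Of the Rpa2 counts at E12.5, 46.2% lay in 1 cell at 1530 CPM, and without it Rpa2 was at 63.6 CPM, 1.31-fold above E9.5 and not called. Without the E9.5 cell that held most counts of the gene, Cdt1 (1.32-fold), Rfc3 (1.19-fold) and Rpa1 (2.03-fold) were not called lower, and Mcm10 was 4.69-fold, Lig1 4.35-fold and Rad51ap1 9.00-fold lower.

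The naming sets pulled many genes in opposite directions. Cdc45 had a log2 ratio of 2.19 that ran from -1.16 to 4.74 over the combinations, and Mcm2 one of -1.51 that ran from -2.49 to 1.87. With sets N530 and N523 alone 21 genes were lower at E12.5, and with set C alone 17, where 35.8% and 24.2% of all genes were, since a single pair of sets needs no second pair in the same direction. Higher at E12.5 were 8 and 5 genes, where 18.2% and 20.6% of all genes were. By sums, repair genes were 3.27-fold lower at E12.5, licensing genes 1.82-fold lower and nucleotide genes at a log2 ratio of 0.19 that ran from -0.19 to 0.74. A single E9.5 cell held 31.4% of the repair counts, at 2100 CPM. The repair fold was 2.30 without it, and 4.64 without the E12.5 cell with the most repair counts.

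**Figure D3:**
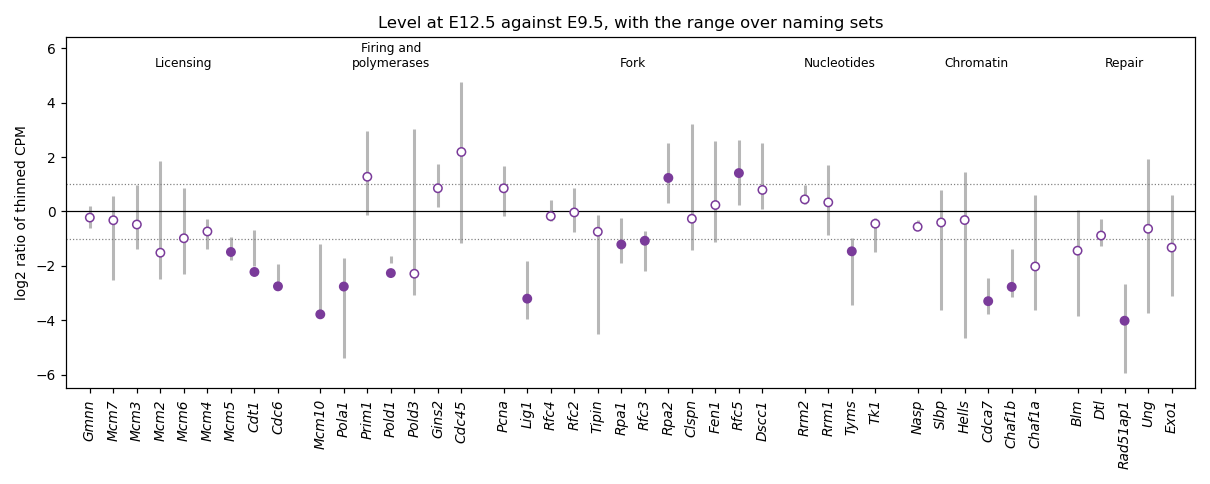
The log2 ratio of thinned CPM at E12.5 to that at E9.5 for each gene (points, filled where the rule called it), with bars for the range over combinations of naming sets in which the gene had counts in both. The bars of Cdc45 (point at 2.19) and Mcm2 (point at -1.51) cross 0, and those of the 2 genes called higher, Rfc5 and Rpa2, do not.

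Replication genes were still found at P1, but in few cells. Of the 43, 30 had a count in 1 or more of the 38 P1 cells, 69.8%, where 85.3% of all genes did. Of these 30, 8 were found in 1 cell and 16 in 3 or more. The 13 at 0 were Cdc6, Mcm10, Pola1, Fen1, Lig1, Clspn, Dscc1, Chaf1a, Chaf1b, Hells, Exo1, Rad51ap1 and Dtl, and they had no count in the 41 kept P1 cells before thinning either. The median share of cells over the 43 genes was 35.7%, 34.5% and 5.26% in the order of age. In that order, 15, 9 and 0 genes were found in 50% or more of cells. Genes with over 50% of their counts in 1 cell numbered 8, 10 and 21. The median share and these counts were not computed over all genes, so they describe the list alone. The median thinned P1 cell also held fewer genes in all, 2846.5, against 3723.5 at E9.5 and 3586 at E12.5.

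The genes most often found at P1 were Nasp in 18 of 38 cells, Gmnn in 14, Slbp in 11, Pcna in 10, Rpa1 in 9, and Rfc2 and Rrm1 in 7 each. Tipin was found in 5 cells, Rfc4, Rpa2, Rrm2 and Cdca7 in 4, and Mcm3, Pold3, Ung and Blm in 3. Per length, the order at P1 was led by Gmnn at 88.8 TPM, Nasp at 68.0, Tipin at 43.4, Pcna at 37.6 and Slbp at 28.7 TPM. At E9.5 it was led by Rrm2 at 468 TPM, Gmnn at 288, Nasp at 241 and Tipin at 220.2 TPM. Without the P1 cell with the highest sum Gmnn was at 53.8 and Nasp at 59.97 TPM, so their order per length at P1 rests on that cell.

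Cells differed widely within a time point. The sum of the 43 genes ran from 460 to 16130 CPM over the E9.5 cells with a median of 3435, from 360 to 10170 CPM over the E12.5 cells with a median of 2130, and from 0 to 3440 CPM over the P1 cells with a median of 300. The median cell had 14, 13 and 2.5 of the 43 genes, and the highest 38, 33 and 15. At P1 2 cells had none. Cells above the highest P1 cell, 3440 CPM, made up 21 of 42 cells at E9.5 (50%, 34.2% to 65.8%) and 9 of 29 at E12.5 (31.0%, 15.3% to 50.8%). The intervals cover counting of cells only, and no comparison of the time points is drawn from them. Within 1.5-fold of this limit lay 21, 6 and 1 cells, so the class is a range and not a type. Above 1000 CPM lay 41 of 42, 21 of 29 and 6 of 38 cells, and above 2000 CPM, near the second P1 cell at 2050 CPM, 73.8% of E9.5 and 55.2% of E12.5 cells.

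**Figure D4:**
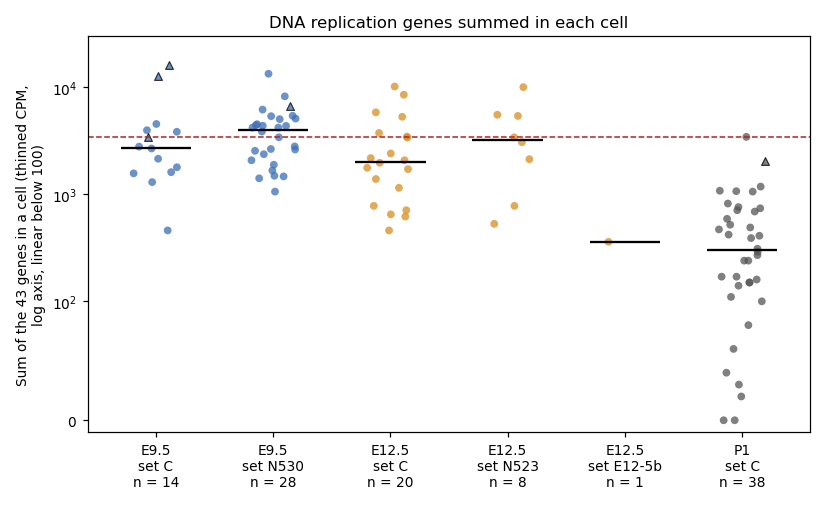
The sum of the 43 genes in each thinned cell (CPM, log axis that is linear below 100), by time point and naming set, with a black line at the median of each set, triangles for the 5 cells with under 10000 CPM of cardiomyocyte markers, and a dashed line at the highest P1 cell (3440 CPM). The embryonic cells run from 360 to 16130 CPM, and 37 of the 38 P1 cells lie at or below 2050 CPM.

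The richest embryonic cells held from 12 to 38 of the 43 genes. The cells ranked 1 and 3 at E9.5 had sums of 16130 and 12860 CPM with 35 and 38 of the 43 genes, and both were low in cardiomyocyte markers (290 and 590 CPM). The first held Rrm2 at 2540, Mcm6 at 1710, Mcm4 at 1570 and Rrm1 at 1430 CPM. The top E12.5 cell, with 31480 CPM of cardiomyocyte markers, had 33 of the 43 genes, all 6 helicase genes and a sum of 10170 CPM. The second of the E9.5 cells, of set N530, had 12 genes at 13380 CPM, led by Lig1 at 4450 CPM, and the second E12.5 cell, of set N523, had 12 genes at 10030 CPM, led by Rrm2 at 3220 and Cdc45 at 2150 CPM. Without the cells low in cardiomyocyte markers 17 of 38 E9.5 cells (44.7%) lay above the limit, and the highest had 13380 CPM.

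A single P1 cell stood out. It had 15 of the 43 genes at 3440 CPM, with Gmnn at 920, Nasp at 750, Rrm1 at 470, Rfc5 at 430, Mcm3 at 350 and Gins2 at 200 CPM. It had 4 of the 6 helicase genes, 11 of 12 cardiomyocyte markers at 109970 CPM, and none of 24 mitosis genes. Its depth was 137743 counts. The second P1 cell was the one with endothelial markers, at 2050 CPM with 5 of the 43 genes. Without the highest cell of each time point 27 genes were found at P1, and the sums of P1 and E9.5 lay -3.12 apart on the log2 scale.

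Replication and mitosis genes were not bound to the same cells. The 24 mitosis genes, such as Cdk1 and Ccnb1, summed to 3221, 3142 and 77.6 CPM, and all 24 were lower at P1 than at E9.5 and 22 lower than at E12.5, where 32.3% and 19.2% of all genes were. The limit for a high mitosis sum was again the highest P1 cell, 1520 CPM. That cell had 3 of the 24 mitosis genes and the next P1 cell was at 420 CPM, so the classes below depend on that 1 cell. At E9.5 14 cells were above both limits, 7 above that of replication alone, 13 above that of mitosis alone and 8 above neither. At E12.5 these were 6, 3, 8 and 12 cells. The E9.5 cells low in cardiomyocyte markers with replication sums of 12860, 3460 and 6720 CPM lay above the replication limit alone. Their mitosis sums were 980, 50 and 350 CPM. The one with a replication sum of 16130 CPM lay above both limits, with a mitosis sum of 1860 CPM. Spearman's rho of the 2 sums, over cells that share a naming set and a fixed depth, was 0.17 (n = 14) and 0.04 (n = 28) in sets C and N530 at E9.5, 0.56 (n = 20) and -0.19 (n = 8) in sets C and N523 at E12.5, and 0.11 (n = 38) at P1. These are descriptions in sparse counts.

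**Figure D5:**
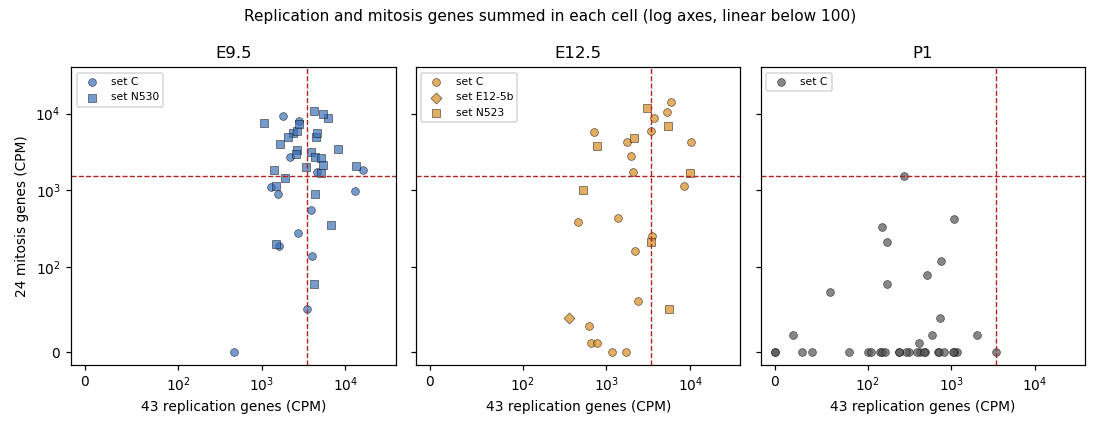
Each cell's sum of the 43 replication genes (x axis, CPM) against its sum of 24 mitosis genes (y axis, CPM), on log axes that are linear below 100, by time point and naming set, with dashed lines at the highest P1 cell of either sum (3440 and 1520 CPM). Above both lines lie 14 of 42 E9.5 cells and 6 of 29 E12.5 cells.

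Other genes of DNA replication summed to 4139, 3486 and 1122 CPM. Their sum at P1 lay -1.88 from that at E9.5 on the log2 scale, against -2.99 for the 43 genes, and their median log2 ratio was -3.05, against -4.08. Of 48 such genes, 31 were lower at P1 than at E9.5 and 0 higher, and 24 were lower and 2 higher than at E12.5, where 32.3% and 17.9% of all genes were lower and higher than at E9.5 and 19.2% and 18.6% than at E12.5. Those with the most embryonic counts were Mcmbp, an MCM binding protein, at 489.8, 638 and 182 CPM, Top2a, the topoisomerase of dividing cells, at 500.5, 376 and 18.9 CPM, and Ssrp1, a FACT subunit, at 332, 58.6 and 13.4 CPM. Most often found at P1 were the topoisomerase Top1 in 27 of 38 cells, the origin recognition gene Orc3 in 24, and Mcmbp and the large clamp loader subunit Rfc1 in 22 each. Orc3 was at 111, 97.9 and 154 CPM and was called in no comparison.

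Of 14 regulators of the G1/S step, 10 were lower and 2 higher at P1 than at E9.5, and 9 were lower and 2 higher than at E12.5. Over all genes these shares were 32.3% and 17.9% against E9.5 and 19.2% and 18.6% against E12.5, so the 2 higher genes are no more than the background gives. The cyclin Ccnd2 was at 1146, 722 and 212 CPM, the CDK inhibitor Cdkn1c at 1019, 727 and 25.5 CPM, and the cyclin Ccnd1 at 99.3, 90.3 and 4.21 CPM. The 2 higher at P1 were the CDK inhibitor Cdkn1a, at 13.6, 0.34 and 41.8 CPM and found in 10 P1 cells, and the retinoblastoma gene Rb1, at 0, 0.34 and 3.95 CPM and found in 4. Of the mitosis genes, Ccnb1 was at 358, 178 and 0 CPM, Cdk1 at 271, 263 and 13.7 CPM and Cenpf at 301, 189.7 and 0 CPM, and Cenpa, Birc5 and Kif20a were found in 6, 4 and 3 P1 cells.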

How the data were processed

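Total RNA of single cells was amplified on C1 chips (SMART-Seq V4) and sequenced as Nextera XT libraries. The authors mapped the reads (GRCm38 per the labels), made read counts per gene symbol (featureCounts) and deposited them raw, beside linear TPM. The library kit marks no strand. The members and gene lists were chosen with earlier results of these data known. Cells with 2000 or more genes and 100000 or more counts were thinned (numpy 2.4.6, seed 1). At P1 11 cells under 2000 genes and 3 under 100000 counts were left out. A level at 0 counts was set at 3 counts over the time point. TPM means are of the 112 kept cells and serve comparisons per length. TMM factors came from edgeR 4.0.16. Overlaps are from GENCODE M21 (GRCm38). Named first, per group of genes, were the 3 highest and the lowest at E9.5 and those found in 3 or more P1 cells, and of other lists the 3 with the most embryonic counts and the 3 most found at P1. The functions were tested on simulated data. Alternatives are given in the closing section.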

Additional observations from a re-analysis of the deposited data

Results flagged for a closer look

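The 43 genes were also read in the P1 cells left out of the main comparisons. In the 11 P1 cells with under 2000 genes they summed to 299 CPM of 714929 counts (214 counts, 95% Poisson interval 261 to 342), above the 4.20 CPM that a count of 0 allows, with 13 genes in 8 cells. In the 3 P1 cells with under 100000 counts they summed to 76.6 CPM (18 counts, 45.4 to 121.0), with 4 genes in 2 cells, above 12.8 CPM. Both lie below the 516 CPM of the 38 P1 cells used. The cause was not tested. The unthinned, 50000-count and TPM values took 41 P1 cells, among them the 3 with under 100000 counts. The setting of 1000 or more genes per cell took 39 P1 cells.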

How the results depend on the processing

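No gene called over all cells changed direction under any alternative that gave a value. The log2 ratio of the summed genes of P1 to E9.5 (-2.99) moved to -3.09 as a mean of unthinned cell CPM, -3.11 with 50000 counts, -3.04 with 3000 or more genes per cell, -2.58 with TMM factors, -3.12 without the highest cells, -3.12 without the 15 cells whose title ends in "no", -2.79 with 8 or more cardiomyocyte markers, -2.88 with 10000 CPM or more of them (added after the data were seen), -3.16 as TPM, -3.27 without Nasp, Rrm1 and Rrm2, and -4.08 as a median over genes. That of P1 to E12.5 (-2.58) moved to -2.98 in pooled unthinned counts, -2.90 with sets N530 and N523, and -2.87 without titles ending in "no". That of E12.5 to E9.5 (-0.41) turned to 0.000629 in pooled unthinned counts, where the deepest set weighs most, and moved to -0.062 with sets N530 and N523, -0.65 without the 3 leading genes and -0.73 as a median. Genes lower at E12.5 than at E9.5 numbered 21 with sets N530 and N523 (35.8% of all genes there) and 9 to 21 over the alternatives, against 13. The share of E9.5 cells with a high sum (50%) was 97.6% above 1000 CPM, 73.8% above 2000 CPM, 94.6% with 3000 or more genes per cell, where 18 P1 cells remain, and 73.8% against the second P1 cell. That of E12.5 (31.0%) was 72.4%, 55.2%, 69.2% and 55.2%. Between 22 and 30 genes were found at P1. Without a filter on low values 17.0%, 10.0% and 9.05% of all genes were called lower, over more genes. Counts of lower genes were not run on TPM, since a gene listed at 0 gives no fold there. No paired analysis was possible because each time point is 1 sample of cells with no shared replicate. Depth limits the P1 values: 3 counts over the 38 cells are 0.789 CPM.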
